A study of Schizosaccharomyces pombe with 2 samples.

Results

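The genes described here carry out pyrimidine synthesis and uracil uptake in fission yeast, Schizosaccharomyces pombe. They were chosen by name, as ura1, ura2, ura3, ura5 and ura4 of the synthesis route, fur1 of uracil salvage and fur4 of uracil uptake. A probe was found for 6 of the 7, among 5006 gene probe names on the arrays. No probe and no entry of the gene table carried the name fur1, so no probe was read as fur1. Whether a gene of the salvage list described below is fur1 under another name was not settled. Each probe was spotted 2 times on each of 2 spotted cDNA arrays. The cultures compared were a wild-type strain with the plasmid pDUAL-Ssn6, which expresses the corepressor subunit Ssn6, and a wild-type strain with the plasmid pDUAL-EMPTY. Both grew at 30 °C in the uracil-free minimal medium MM-URA, which selects for the plasmid, and were harvested in logarithmic growth. The labels give neither the promoter that drives Ssn6 nor the chromosomal alleles of the pyrimidine genes, and the design speaks of independent RNA preparations without saying whether they came from separate cultures.

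Pyrimidine synthesis starts with carbamoyl phosphate and aspartate, closes a ring to dihydroorotate, oxidises it to orotate, and adds ribose phosphate to give orotidine monophosphate, which is decarboxylated to uridine monophosphate (UMP). In fission yeast Ura1 carries out the first steps, Ura2 is dihydroorotase, Ura3 is dihydroorotate dehydrogenase, Ura5 is orotate phosphoribosyltransferase and Ura4 is orotidine monophosphate decarboxylase. Salvage enzymes instead build UMP from uracil or uridine, and the permease Fur4 brings uracil into the cell. The ura4 gene is also a widely used selectable marker, and here it is the marker of the plasmid. Its probe cannot tell a plasmid-borne transcript from a chromosomal one, and the labels do not say whether the host carries a chromosomal copy.

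Each array held both cultures in its 2 colours, and the files name the colours channel B and channel A without a dye or a culture. All 4 spots of the overexpressed gene ssn6 gave more signal in channel B, by 6.16-fold and 8.10-fold on array 1 and by 8.86-fold and 8.29-fold on array 2. On that basis channel B is likely the Ssn6 culture and channel A the culture with the empty plasmid. The labels describe a dye swap between the arrays, and the files do not show which array's channels it would turn. Every ratio below is log2 of B over A after loess normalization within each array, and dye bias may not cancel in it. A ratio compares shares of the labelled RNA, so it does not separate a gene's own change from a change in the rest of the RNA. The mean ratio of ssn6 was 2.04 ± 0.19 (SD, n = 2 arrays; limma, adjusted p = 6.65e-05). Median gene spot intensities were 82901 in channel B and 77032 in channel A on array 1, and 90276.5 and 76926.5 on array 2. The lowest intensity of any pyrimidine synthesis or uptake spot was 42732, above the background floor of 14253 to 19925, the 95th percentile of negative controls in each channel. The files' saturation factor marked none of these spots as saturated.

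**Figure D1:**
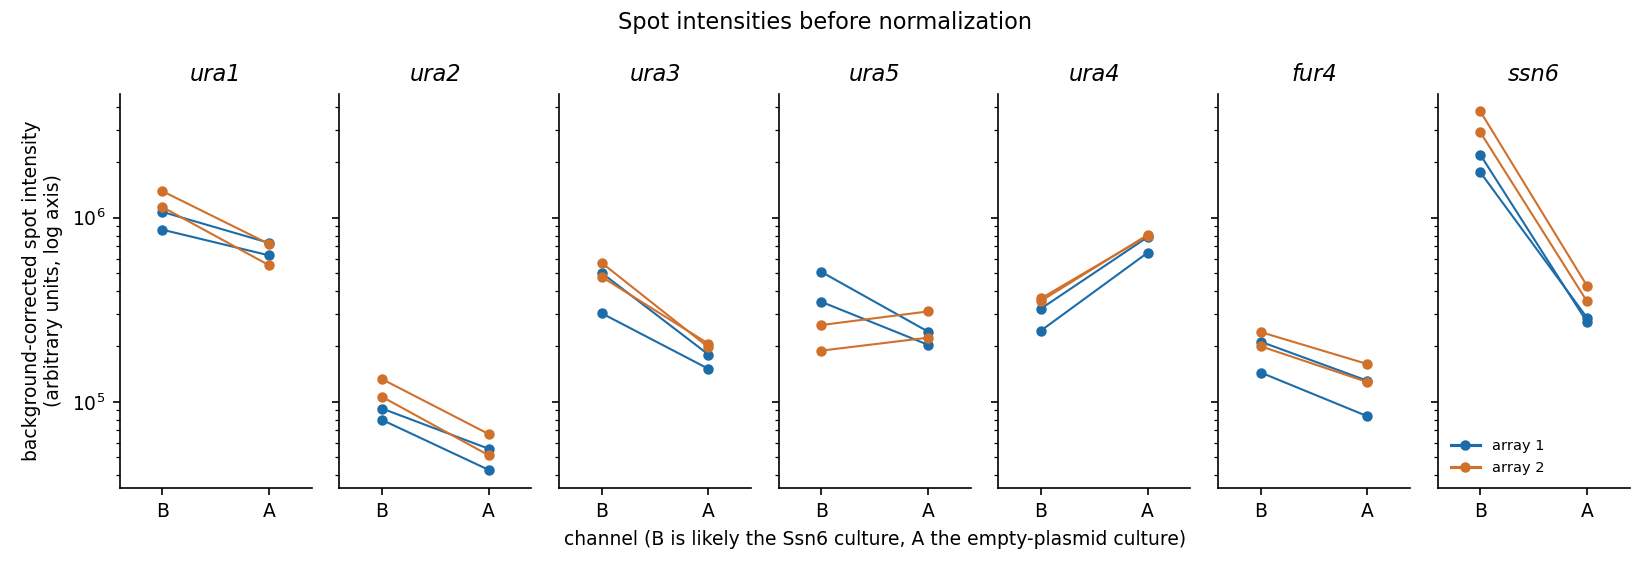
Background-corrected intensity of every spot in channel B (left) and channel A (right) of each panel, on a log axis in arbitrary units, for the 6 pyrimidine genes and ssn6; a line joins the channels of one spot and colour marks the array. All 4 ura4 spots were dimmer in channel B, all 4 ura1, ura2, ura3 and fur4 spots were brighter there, and the ura5 lines slope oppositely on the arrays.

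Pyrimidine genes passed in both directions. The marker gene ura4 was 3.62-fold lower in channel B, ura3 was 1.89-fold and ura2 1.65-fold higher, and ura1, ura5 and fur4 did not pass. Of the 6 genes tested, 2 were higher and 1 was lower at an adjusted p under 0.05, against 11.3% higher and 16.6% lower over all 4903 gene probes tested. The median ratio of the 6 was 0.18, beside 0.01 over all probes. Each ratio was tested against 0 with limma over all 4903 probes, with Benjamini-Hochberg adjustment. The test rests on 2 arrays. In it limma drew each gene's variance toward a value shared by all probes, with 7.52 prior against 1 residual degree of freedom. Its p-values thus rest mostly on the spread between the arrays over all probes, which may be technical. None of the 3 calls held in the authors' deposited table, read at 1 spot per array (ura4 -1.56, ura3 1.10, ura2 0.76, each with an adjusted p of 0.0755), or with the sign of array 1 turned. In both of these settings 0 of all genes passed, so the loss is not particular to these 3 genes. Turning the sign of array 1 cancels any ratio that is alike on both arrays, as for ssn6 (0.13). That setting therefore cannot test a call.

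The first enzyme of the route, Ura1, joins carbamoyl phosphate synthesis to its transfer onto aspartate. Before normalization the ura1 spots of array 1 gave 1.38 and 1.47 times as much signal in channel B as in channel A, and those of array 2 gave 1.94 and 2.07 times as much. Loess normalization lowered these bright spots by 0.78 to 1.01 on the log2 scale and left array ratios of -0.44 and 0.17. The arrays thus lay on either side of 0, and the mean of -0.13 ± 0.44 did not pass (adjusted p = 0.636), with a 95% interval from -0.58 to 0.31. The direction of ura1 turned with the normalization. With median centring its ratio was 0.53 and passed toward channel B (adjusted p = 0.0455), with print-tip loess it was 0.48 (adjusted p = 0.0933), and in the authors' deposited table it was 0.15.

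The next enzymes, the dihydroorotase Ura2 and the dihydroorotate dehydrogenase Ura3, had transcripts higher in channel B on both arrays. The ura2 spots read 79811 and 92056 in channel B against 42732 and 55642 in channel A on array 1, and 132921 and 106527 against 66870 and 51287 on array 2. The array ratios of ura2 were 0.69 and 0.76, and the mean of 0.73 ± 0.05 passed (adjusted p = 0.0111). The ura3 spots read 501078 and 302695 in channel B against 180765 and 151175 in channel A on array 1, and 476973 and 568406 against 206902 and 197927 on array 2. The array ratios of ura3 were 0.90 and 0.94, with a mean of 0.92 ± 0.03 (adjusted p = 0.00354). Every spot of both genes was brighter in channel B before normalization, which then shifted their log2 ratios by -0.43 to -0.125. How many of all gene probes separate in this way was not counted. The single spots of ura3 ranged from 0.72 to 1.09 and those of ura2 from 0.60 to 0.81, so spots of one probe on one array differed by more than the array means did.

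Orotate phosphoribosyltransferase, encoded by ura5, gave opposite results on the arrays. On array 1 its spots had 2.11 and 1.71 times the signal of channel A in channel B, with normalized values of 0.63 and 0.43. On array 2 both spots were dimmer in channel B, at 0.844 and 0.851 of channel A, with normalized values of -0.64 and -0.59. Spots of one array thus lay close together while the arrays differed by 1.14, a gap reached or exceeded by 2.37% of all gene probes tested. The mean of -0.04 ± 0.81 did not pass (adjusted p = 0.91), and its 95% interval ran from -0.62 to 0.53. It describes neither array. The cause of the gap was not tested.

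The last enzyme of the route, the orotidine monophosphate decarboxylase Ura4, had the largest difference among the 6 genes. The ura4 spots read 321013 and 243906 in channel B against 785583 and 646228 in channel A on array 1. On array 2 they read 364742 and 353653 in channel B against 797840 and 807471 in channel A. Every spot was dimmer in channel B before normalization. The normalized spots lay between -1.95 and -1.75, the array ratios were -1.93 and -1.77, and the mean was -1.85 ± 0.11 (95% interval -2.23 to -1.48, adjusted p = 0.000101). By mean ratio ura4 was number 95 from the lowest of 4903 probes.

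Within the route ura4 stood below every other gene on both arrays. Its ratio minus that of the lowest other synthesis gene was -1.49 on array 1, where that gene was ura1, and -1.16 on array 2, where it was ura5. Against the median of the other 4 genes the difference was -2.54 on array 1 and -2.24 on array 2. This comparison of ratios is a description over 2 arrays. The leucine synthesis gene leu1, which vectors of the pDUAL family also carry in part, had array ratios of -0.50 and -0.63 and a mean of -0.57 ± 0.09 (adjusted p = 0.0326). Before normalization the leu1 spots were between 1.07-fold and 1.11-fold brighter in channel B. Its call depended on the normalization: with median centring the ratio was -0.11 (adjusted p = 0.673), in the authors' deposited table it was -0.27 (adjusted p = 0.19), and without saturated spots it was -0.50 (adjusted p = 0.0519). The saturation factor marked no leu1 spot, so leaving out saturated spots changed leu1 only through the refit without other spots. Among all genes, 0 passed in the authors' table.

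**Figure D2:**
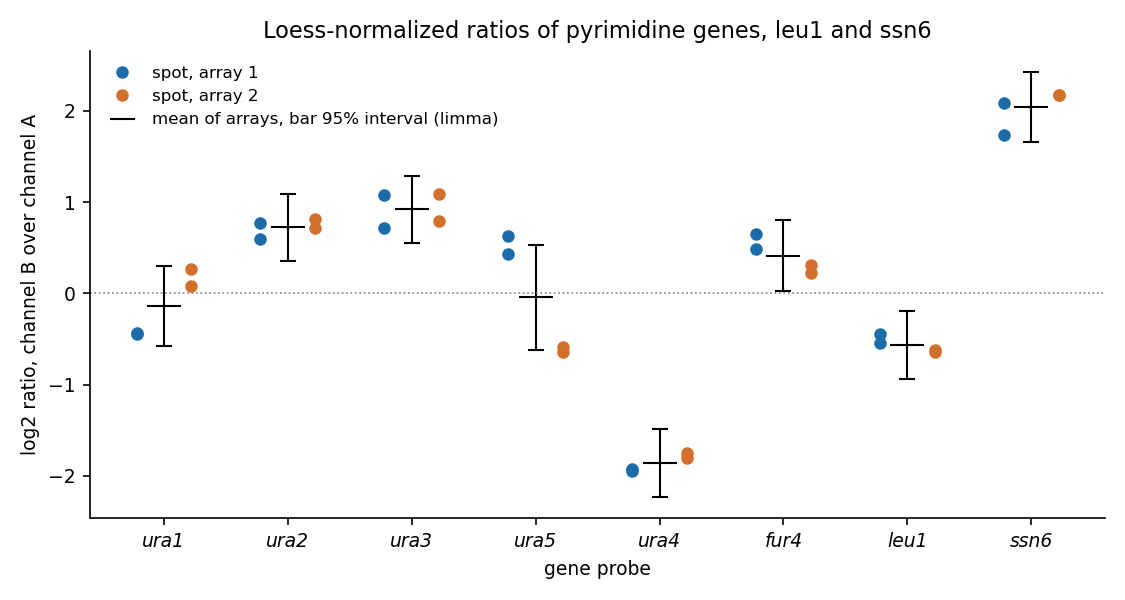
Loess-normalized log2 of B over A for each spot of the 6 pyrimidine genes, leu1 and ssn6, coloured by array; the black mark is the mean of the arrays and its bar the 95% interval from limma. The ura4 spots sit between -1.95 and -1.75, the ura2 and ura3 spots above 0 on both arrays, and the ura5 spots above 0 on array 1 and below 0 on array 2.

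The genes whose pair of array ratios lay nearest to that of ura4 were SPAC977.05c, lat1, SPBC1773.13, sut1 and SPBC725.03, at Euclidean distances of 0.0201 to 0.112 over the 2 arrays. Their mean ratios ran from -1.91 for SPBC725.03 to -1.83 for sut1. With 2 arrays such nearness says only that the ratios are of similar size. For fur4 the nearest were utp7, tcg1, byr2, fnx2 and gdh1, at distances of 0.000493 to 0.0276, with mean ratios from 0.40 to 0.43.

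The uracil permease gene fur4 was brighter in channel B in all 4 spots but did not pass. Its spots read 144376 and 212181 in channel B against 83581 and 130226 in channel A on array 1, and 200471 and 239392 against 128156 and 160500 on array 2. Normalized, the array ratios were 0.56 and 0.26, and the mean of 0.41 ± 0.21 had an adjusted p of 0.1. The 95% interval of 0.03 to 0.80 belongs to the unadjusted p of 0.0382. Its ratio stayed between 0.39 and 0.55 under the other settings with both arrays taken as B over A, and passed under none of them.

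The gene fur4 lies on chromosome I in a run with other genes of uracil use. In the order of the gene table, the protein-coding genes from urg2 to SPAC1399.01c were urg2, urg3, urg1, toe1, uck2, fur4, SPAC1399.02, SPAC1399.06 and SPAC1399.01c. The urg genes are known in fission yeast for their response to uracil, and toe1 encodes a transcription factor. Probes were present for 8 of these 9 genes, and neighbours differed in direction. Over all gene probes 27.9% passed in either direction, so calls among 8 probes are not by themselves particular to this run. The toe1 spots read 20155 and 24866 in channel B against 43282 and 46702 in channel A on array 1, and 22688 and 23667 against 49151 and 53471 on array 2. Its mean ratio was -1.24 ± 0.14 (adjusted p = 0.000845). All 4 toe1 spots were dimmer in channel B, where the signal of 20155 to 24866 lay close above the negative controls. The gene urg3 was higher at 0.71 ± 0.004 (adjusted p = 0.0117), with array ratios of 0.72 and 0.71. SPAC1399.01c was lower at -1.32 ± 0.10 (adjusted p = 0.000585). The other genes of the run did not pass: urg1 had a ratio of -0.32 ± 0.35, urg2 had -0.33 ± 0.27, and uck2, whose arrays both read close to -0.41, had -0.41 ± 0.01 (adjusted p = 0.0905).

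**Figure D3:**
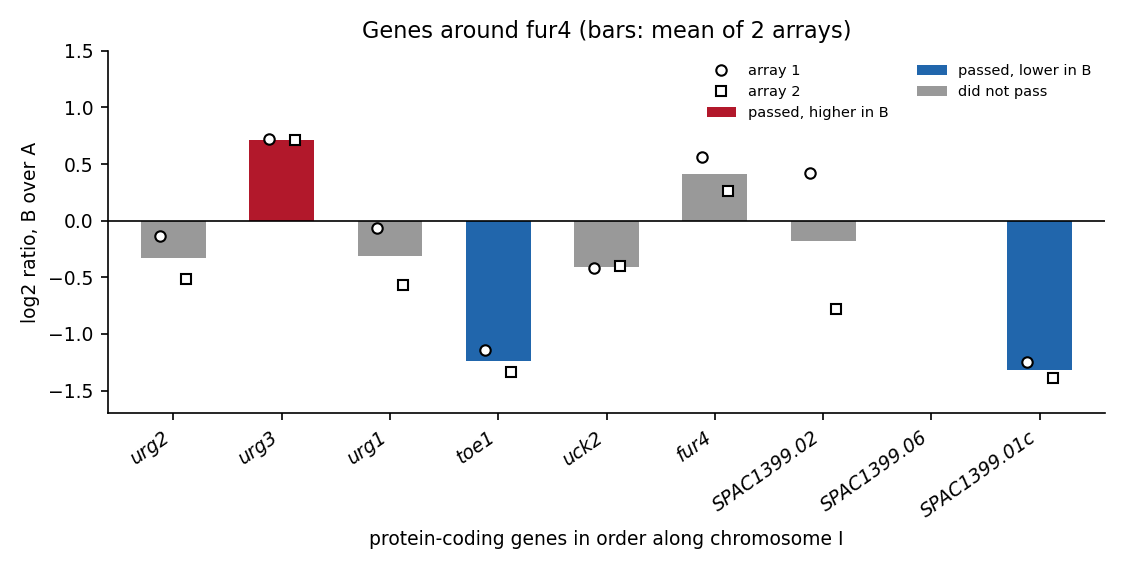
Mean log2 of B over A (bars) for the protein-coding genes from urg2 to SPAC1399.01c in their order along chromosome I, with the ratio on array 1 (circles) and array 2 (squares); bar colour marks genes that passed in either direction or did not pass, and SPAC1399.06 has no probe. Only urg3 passed upward and only toe1 and SPAC1399.01c passed downward, with fur4 between uck2 and SPAC1399.02.

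Like ura5, 2 genes of the salvage and uptake list had opposite signs on the arrays. SPAC1B3.01c had 0.35 on array 1 and -0.998 on array 2. Its raw channel B signal was 2.10 and 1.63 times that of channel A in the spots of array 1, and 0.804 and 0.709 times in those of array 2. SPAC1399.02, next to fur4, had 0.42 on array 1 and -0.78 on array 2. Gaps as large were seen in 1.61% and 2.2% of all gene probes. The array ratios correlated across all probes with a Pearson r of 0.805, a description over genes that share the arrays, and 24.2% of probes had opposite signs. Of the 6 pyrimidine synthesis and uptake genes, 2 had opposite signs, ura1 and ura5. These genes' means of the arrays were not called, and whether the RNA preparations or the hybridisations differed for them was not tested.

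**Figure D4:**
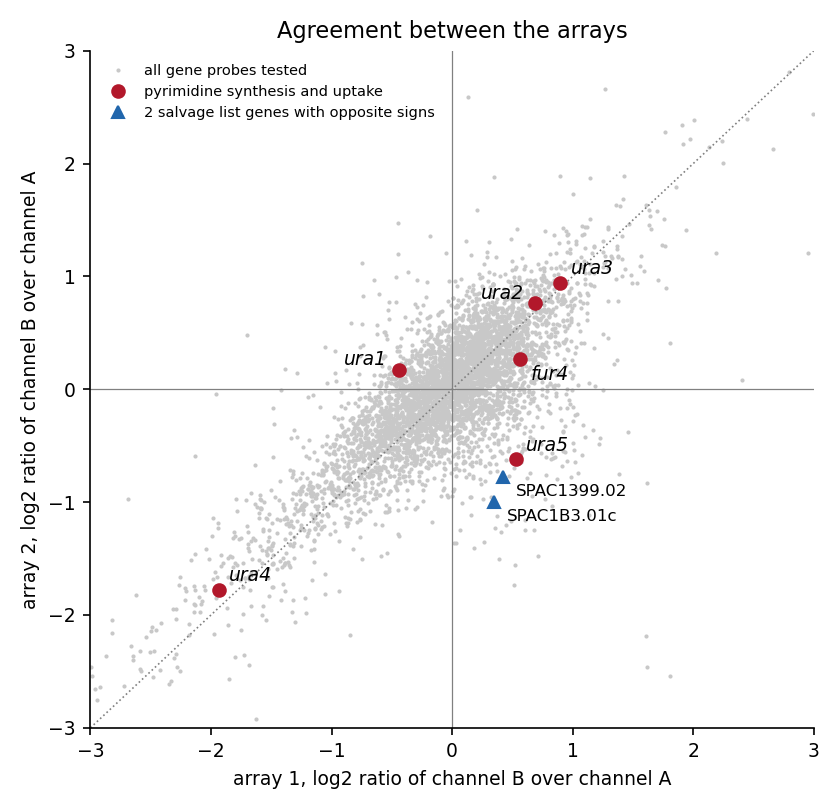
Log2 of B over A on array 1 (x axis) against array 2 (y axis) for all gene probes tested (grey), the 6 pyrimidine genes (red circles) and 2 salvage list genes (blue triangles); the dotted line marks equal ratios, and the axes end at -3 and 3. The genes ura2, ura3 and ura4 lie near the line, while ura5, SPAC1399.02 and SPAC1B3.01c lie below it, with positive ratios on array 1 and negative ratios on array 2.

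Beyond UMP, the uridylate kinase gene ura6, whose product makes UDP, was higher in channel B. Its array ratios were 0.50 and 0.79, with a mean of 0.64 ± 0.21 (adjusted p = 0.0223). On array 1 its spots were 0.77 and 0.22, further apart than on array 2, where they were 0.71 and 0.88. The nucleoside diphosphate kinase gene ndk1 (0.45 ± 0.12, adjusted p = 0.0728) and the CTP synthase gene cts1, listed as ura7 (0.18 ± 0.20), did not pass. Of the 3 genes from UMP to CTP, 1 was thus higher and 0 were lower, 33.3% called, near the 27.9% called in either direction over all gene probes.

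Of the 15 genes listed for pyrimidine salvage and uptake, 14 were tested. Of these, 3 passed as higher, 2 as lower and 9 in neither direction; the median ratio was 0.03. The share called was 35.7%, against 27.9% over all gene probes. The uridine ribohydrolase gene urh1, whose product splits uridine into uracil and ribose, had the largest difference of the list. Its mean intensities were 68499 and 63912.5 in channel B on arrays 1 and 2, against 286672 and 291984 in channel A. Its mean ratio of -2.38 ± 0.17 (adjusted p = 2.69e-05) is 5.19-fold lower in channel B. The related gene urh2 had -0.45 ± 0.13 and did not pass (adjusted p = 0.0709). SPCC965.14c, listed as fcy1, was 3.12-fold higher (1.64 ± 0.09, adjusted p = 0.000189). SPAC29B12.14c was 1.88-fold higher (0.91 ± 0.07, adjusted p = 0.0039). The gene table gives neither gene a name. The list also holds thi7, whose name in the table marks it as a thiamine gene, and yfh7; neither passed.

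Genes of deoxypyrimidine nucleotides ran higher in channel B where they passed. Of 6 tested, 3 passed as higher and 0 as lower, against 11.3% higher and 16.6% lower over all 4903 gene probes tested. Whether 3 of 6 exceeds the share over all probes was not tested. The median ratio of the 6 was 0.52. The dUTPase gene dut1, whose product breaks down dUTP, was 2.37-fold higher (1.25 ± 0.11, adjusted p = 0.000799). The large subunit gene of ribonucleotide reductase, cdc22, had 0.83 ± 0.02 (adjusted p = 0.00593) and the dCMP deaminase gene dcd1 had 0.52 ± 0.02 (adjusted p = 0.0426). The small subunit gene suc22 had 0.11 ± 0.31, hal3 had -0.04 ± 0.42 and tmp1 had 0.53 ± 0.45, and none of these passed. Over these 3 lists 7 of 23 tested genes were higher and 2 were lower, 39.1% in either direction, against 27.9% over all gene probes.

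Purine synthesis was read beside them as the other route to nucleotides. Of 12 genes tested, 2 passed as higher, 2 as lower and 8 in neither direction; the median ratio was 0.09. The lowest was ade3, of an early step of ring building (-1.25 ± 0.07, adjusted p = 0.000773), followed by ade7 (-1.005 ± 0.20, adjusted p = 0.0028). The glycinamide ribonucleotide transformylase gene ade5 (0.87 ± 0.09, adjusted p = 0.00501) and ade10, of the last steps to inosine monophosphate (0.51 ± 0.04, adjusted p = 0.0454), were higher. The call of ade10 was lost with print-tip loess (0.23, adjusted p = 0.281), without the filter on dim probes (adjusted p = 0.0507) and in the authors' deposited table (0.78, adjusted p = 0.0924). The share called was 33.3%, near the 27.9% over all gene probes.

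**Figure D5:**
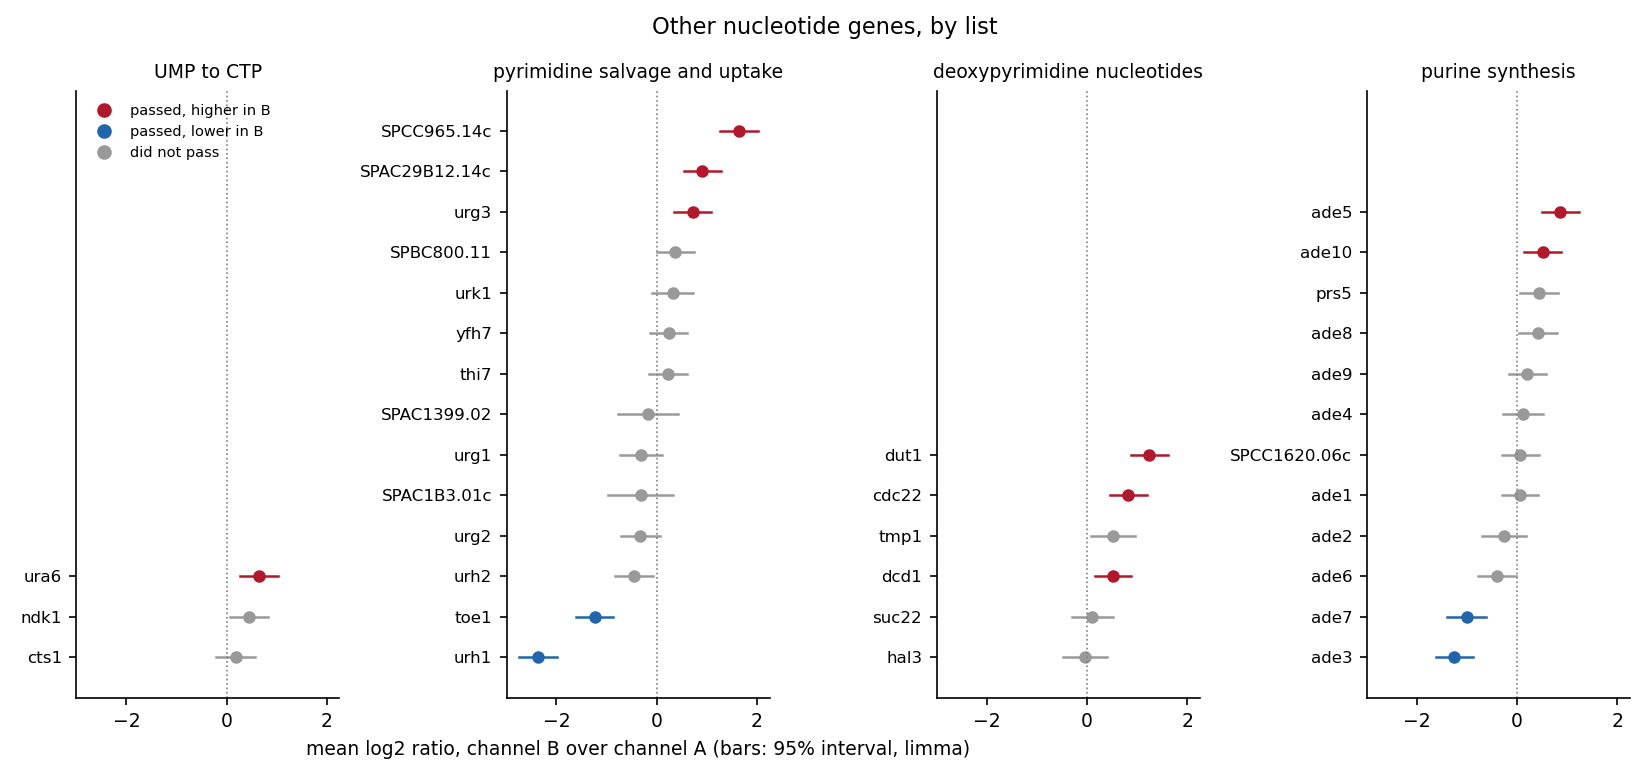
Mean log2 of B over A (points) with the 95% interval from limma (bars) for the tested genes of 4 lists; colour marks genes that passed in either direction. The salvage list spans -2.38 for urh1 to 1.64 for SPCC965.14c, and the deoxypyrimidine list holds no gene that passed below 0.

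The chromosomal neighbours of the pyrimidine genes were read from the 3 nearest protein-coding genes on each side. Of 31 neighbours tested, 2 were higher and 7 lower, a share called near the 27.9% over all gene probes. Among the neighbours of ura4 on chromosome III, 3 of 6 were tested. SPCC330.03c was lower at -0.92 ± 0.39 (adjusted p = 0.00734) and pmp20 was higher at 0.90 ± 0.98 (adjusted p = 0.0472). The pmp20 ratio was 0.21 on array 1 and 1.59 on array 2, so its mean describes neither array. Of the 4 pmp20 spots, 1 on array 1, at -1.14, went against the other 3, at 1.38 to 1.80. That spot read 49379 in channel B, against 2293076 in the other spot of array 1. The latter spot, at 1.555, lay between the spots of array 2. The pmp20 call was lost under 6 of 13 alternatives, such as no filter (adjusted p = 0.0567). These include the authors' deposited table and the sign of array 1 turned, where 0 of all genes passed. Next to ura5, arg6 of arginine synthesis (-0.83 ± 0.05, adjusted p = 0.00576) and psf2 (-0.63 ± 0.10, adjusted p = 0.0218) were lower. Of the 6 tested neighbours of ura1, ppk8 was lower at -1.07 ± 0.05 (adjusted p = 0.00163), and of the 5 tested neighbours of ura2, sfp1 was lower at -1.55 ± 0.20 (adjusted p = 0.000301). The RNA-binding protein gene sla1, near ura3, was higher at 0.71 ± 0.09 (adjusted p = 0.0127). The genes directly adjoining ura1, ura2 and ura3 did not pass, and those directly adjoining ura4 were not tested.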

How the data were processed

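A scanner file for each array was deposited by the authors. Per the file headers it holds background-corrected channel intensity, background intensity, the linear ratio of channel A over channel B by mean and median, and a saturation factor, a fraction from 0 to 1. No scanner software is named in the labels or headers. The authors also deposited values normalized by lowess, per the series' design text. Set against the scanner values, these deposited values behaved as log10 ratios of B over A (r = 0.913 and 0.939 across spots on arrays 1 and 2, column medians 0.01). Rows from 5761 on did not follow the spot order and were not used.

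An offset of 50 was added to each intensity, log2 ratios of channel B over channel A were normalized by loess (span 0.3, controls at weight 0), spots of a probe were averaged, and probes below the 95th percentile of negative controls in both channels of either array were left out, which left 4903 of 5006. Alternatives changed 1 of these steps at a time or left out an array. Ratios were tested against 0 with limma 3.58.1 in R 4.3.3, two-sided, Benjamini-Hochberg adjusted. The fit was also run on simulated ratios with independent errors. It called 12 of 4703 unchanged genes and 87 of 100 genes changed by a log2 of 1. Such ratios cannot show whether the spread between the real arrays is technical. Of the probe names, 4777 matched the gene table of assembly ASM294v3, which served for names and gene order only. The genes, the lists and the naming rule (every pyrimidine gene, ssn6, leu1, list genes and neighbours that passed, and the 5 nearest genes) were chosen with earlier results of these data known, and genes named beside it, such as uck2 and SPAC1B3.01c, after their values were seen.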

Additional observations from a re-analysis of the deposited data

How the results depend on the processing

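The genes were refitted under median centring, print-tip loess, a wider loess span, 2 forms of normexp (one, on spots with signal, chosen after seeing the data), other offsets, no filter, no saturated spots, flag C spots only (ssn6 then had no value), ratios of medians, and the authors' deposited table. The calls of ura2, ura3, ura4 and ssn6 held in all of these with a value except the authors' deposited table, which rests on 1 spot per array and called 0 of 4860 genes in limma (1790 at an unadjusted p under 0.05): there ura2 had 0.76, ura3 1.10, ura4 -1.56 and ssn6 2.29, each with an adjusted p of 0.0755. The ratio of ura4 otherwise ran from -2.06 to -1.48. The ratio of ura1 turned to 0.53 with median centring, 0.48 with print-tip loess and 0.15 in the authors' table, and that of ura5 to 0.11, 0.093 with ratios of medians, and 0.17. SPAC1B3.01c turned to 0.011 with median centring and 0.050 in the authors' table. By the authors' values 0 pyrimidine synthesis and uptake genes and 0 genes of the other pyrimidine lists passed in either direction. With median centring 3 genes were higher, ura1 among them, and genes called higher over all probes were 762 against 554, 47.5% against 40.5% of calls; 8 genes of the other pyrimidine lists were then higher and 3 lower, as 3 were with print-tip loess, against 7 and 2. The cause of these changes was not tested.

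With the sign of array 1 turned, as a dye swap in fixed channels would need, 0 genes passed (6 at an unadjusted p under 0.05). Ratios alike on both arrays cancel with the sign turned, so this setting cannot test a call. Then ura1 had 0.31, ura2 0.038, ura3 0.023, ura4 0.080, fur4 -0.15, ssn6 0.13, SPCC965.14c -0.064, dut1 -0.080, ade5 -0.062, ade10 -0.028, sfp1 0.14 and uck2 0.0055, while ura5 had -0.57, SPAC1B3.01c -0.67 and pmp20 0.69.
Single arrays are values with no test. Leaving out each array in turn gave ura1 -0.44 to 0.17, ura2 0.69 to 0.76, ura3 0.90 to 0.94, ura5 -0.62 to 0.53, ura4 -1.93 to -1.77, fur4 0.26 to 0.56, ssn6 1.91 to 2.18, SPAC1B3.01c -0.998 to 0.35 and pmp20 0.21 to 1.59. Each ratio pairs the cultures within an array. No further pairing between arrays was possible because both arrays belong to 1 group of ratios. The number of arrays limits the precision.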
